A study of Mus musculus with 311 samples.

Results

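The serpins are a family of structurally related proteins, and 28 of their genes were read in the livers of 311 F2 mice out of 11387 genes measured. Members were all genes whose platform symbol begins with Serpin, read from a probe measured on at least 95% of the arrays, with 1 probe per gene. The platform held 34 such probes for 30 genes, and both genes that were left out fell under 95%: Serpina1c, an alpha-1-antitrypsin gene, was measured on 87.1% of arrays and Serping1, which codes for the C1 inhibitor, on 73.3%. The member nearest to the limit was Serpina1d, on 95.5% of arrays. By clade, 11 members were of clade A, 11 of clade B, 2 of clade F, 2 of clade I, 1 of clade D and 1 of clade H. Of the 11 clade A genes 10 lie on chromosome 12 and Serpina7 lies on the X chromosome.

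The animals were the F2 generation of a cross between C57BL/6J and C3H/HeJ mice, both of which carried null alleles of the apolipoprotein gene ApoE, so that every animal of the series lacked it. Both sexes were used, and all ate a Western, high-fat diet from 8 to 24 weeks of age. Total liver RNA of 1 animal was labelled with Cy3 on each array and set against Cy5-labelled RNA pooled in equal portions from the samples. Each value is a log10 ratio of animal to pool, so that 0 means the level of the pool and 1 a level 10 times higher, and levels of different genes cannot be set against each other. All arrays form 1 labelled group, with no parental strain and no other diet.

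The sex of the single animals was not among the labels used here. The arrays were therefore described in 2 sets, divided at a log10 ratio of -0.5 for the probe of Eif2s3y, a gene of the Y chromosome. The 155 Eif2s3y-high arrays ranged from -0.22 to 0.53 on this probe, and the 156 Eif2s3y-low arrays from -1.76 to -0.87. Because the sets were made from a measured value and not from a label, no difference between them was tested, and they are compared by their medians and their overlap. The probe of a further Y-linked gene, Kdm5d, put 1 array into the other set, the animal F2 20, with -0.87 on Eif2s3y and -0.26 on Kdm5d. On 12 arrays, of which 5 were Eif2s3y-high, a pancreas or skeletal muscle gene exceeded the pool by 10-fold or more.

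Serpins fold into a strained structure with an exposed loop that a target protease cuts, after which many of them trap the protease in an inactive complex. Several clade A members are secreted by hepatocytes into plasma, where they inhibit proteases or, like the hormone-binding globulins, carry hormones instead. Clade B members lack a classical signal peptide and act mostly inside cells, including cells of the immune system. Among the single-clade members, heparin cofactor II and alpha-2-antiplasmin hold clotting and fibrinolysis in check, and HSP47 (Serpinh1) is no inhibitor but a chaperone of collagen.

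RefSeq promoter entries of the assembly GRCm38.p6 matched 25 of the 28 members. The 250 bases before the start are shown for 3 of the 5 members whose medians lay furthest apart between the sets, and for Serpina11, a member with many correlated family members. Capitals mark matches, on either strand, to TTCNNNGAA of STAT factors, GTTAAT from the HNF1 site, TTGCNNAA of C/EBP factors, TATAAA of the core promoter or TGTTCT from the steroid receptor site. Serpina7 lies at chrX:139085237-139085486 on the minus strand, Serpina12 at chr12:104044444-104044693 on the minus strand, Serpina3f at chr12:104214294-104214543 on the plus strand and Serpina11 at chr12:103989958-103990207 on the minus strand.
Serpina7: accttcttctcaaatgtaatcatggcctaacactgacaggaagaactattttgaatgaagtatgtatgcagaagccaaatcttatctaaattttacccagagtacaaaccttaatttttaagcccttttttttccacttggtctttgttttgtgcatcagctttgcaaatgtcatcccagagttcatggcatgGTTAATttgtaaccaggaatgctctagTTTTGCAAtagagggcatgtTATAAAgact
Serpina12: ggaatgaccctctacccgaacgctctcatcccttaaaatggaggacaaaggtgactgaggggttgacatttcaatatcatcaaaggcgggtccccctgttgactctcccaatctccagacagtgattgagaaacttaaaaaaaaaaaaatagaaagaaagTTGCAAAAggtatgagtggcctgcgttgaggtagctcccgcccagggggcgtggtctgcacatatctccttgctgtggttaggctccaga
Serpina3f: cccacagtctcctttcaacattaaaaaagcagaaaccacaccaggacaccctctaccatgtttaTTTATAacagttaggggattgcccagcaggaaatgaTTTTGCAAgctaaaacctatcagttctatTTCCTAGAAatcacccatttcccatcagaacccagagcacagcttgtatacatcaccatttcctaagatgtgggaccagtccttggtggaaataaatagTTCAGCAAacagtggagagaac
Serpina11: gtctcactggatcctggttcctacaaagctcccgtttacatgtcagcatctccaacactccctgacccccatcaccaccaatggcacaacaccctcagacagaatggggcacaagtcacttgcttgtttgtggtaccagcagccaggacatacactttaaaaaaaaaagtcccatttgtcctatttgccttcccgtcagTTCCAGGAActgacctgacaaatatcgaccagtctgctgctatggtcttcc
Serpina7, the thyroxine-binding globulin gene, held GTTAAT 57 bases, TTGCNNAA 30 bases and TATAAA 10 bases before its start. Serpina12 held 1 match, to TTGCNNAA. Serpina3f held 4 matches, and Serpina11 held only TTCNNNGAA, 51 bases before its start. Over all 27025 promoter entries of this length, TTCNNNGAA was found in 7.18%, GTTAAT in 6.52%, TTGCNNAA in 9.55%, TATAAA in 13.0% and TGTTCT in 16.2%. A match describes letters and is no evidence of binding.

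Over all 311 arrays, 4 members fell into 2 groups of animals: Serpina6, Serpina7, Serpina12 and Serpina4-ps1. The rule asked that a mixture of 2 normal distributions beat a single normal and a Student t distribution by a Bayesian information criterion (BIC) margin of 10, and 1.84% of all genes met it. For the 4 members the margins were 35.4, 53.1, 26.5 and 103. The groups followed the Eif2s3y sets: 293 of 311 arrays (94.2%) lay on their own set's side of the boundary for Serpina6, 290 (93.2%) for Serpina12, 286 (92.0%) for Serpina7 and 274 of 309 (88.7%) for Serpina4-ps1. Within the Eif2s3y-high arrays no member met the rule (0 of 28, against 0.852% of all genes), and within the Eif2s3y-low arrays none did either (0 of 28, against 0.878%). In the low arrays Serpina4-ps1 came nearest, with a margin of 24.8, but its 2 components lay 1.74 pooled SD apart, under the limit of 2.

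Serpina6, which codes for the corticosteroid-binding globulin, was, of the members in 2 groups, the only one that stood higher in the Eif2s3y-low arrays. Its log10 ratio ran from -0.59 over a median of -0.23 to 0.07 in the high arrays, and from -0.23 over a median of 0.15 to 0.39 in the low arrays. The medians were 2.40-fold apart, and in 98.5% of pairs of a high and a low array the low array had the larger value. The ranges overlapped between -0.23 and 0.07.

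Serpina7 took the opposite order. Its values ran from -0.32 over 0.19 to 0.54 in the high arrays and from -0.75 over -0.34 to 0.16 in the low arrays, a 3.35-fold difference of medians with 98.1% of array pairs in that order. Serpina12 codes for vaspin, an inhibitor of kallikrein 7 that is best known from adipose tissue. It ran from -0.35 over 0.18 to 0.56 in the high arrays and from -0.73 over -0.26 to 0.06 in the low arrays. The medians were 2.75-fold apart, and 97.6% of pairs had the higher value in the high array.

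Serpina4-ps1, a pseudogene related to kallistatin, had the widest gap. Its values ran from -0.91 over 0.15 to 1 in the high arrays and from -1.22 over -0.87 to 0.13 in the low arrays, so that the medians were 10.5-fold apart. In 96.8% of array pairs the high array lay above the low array. The ranges overlapped from -0.91 to 0.13. At the boundary between its 2 groups, -0.63, 29 low arrays lay in the upper and 6 high arrays in the lower group.

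Serpina3f, of the mouse relatives of alpha-1-antichymotrypsin, was the remaining member with medians at least 1.5-fold apart. Its values ran from -0.35 over 0.08 to 0.52 in the high arrays and from -0.76 over -0.21 to 0.23 in the low arrays, a 1.95-fold difference with 87.2% of pairs in that order. It did not fall into 2 groups. In all, 5 members had medians 1.5-fold or more apart, against 2.02% of all genes. Of these 4 were higher in the high arrays (1.11% of all genes) and 1 in the low arrays (0.913%).

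Serpinb8, an intracellular clade B member, differed little in size but regularly. Its medians were -0.07 in the high and 0.04 in the low arrays, 1.29-fold apart, and 96.6% of array pairs were in that order. It thus joined Serpina6, Serpina7, Serpina12 and Serpina4-ps1 as the 5 members with at least 95% of pairs in the same order, which 0.826% of all genes reached. For the other 22 members the medians lay between 1-fold and 1.34-fold apart. Over the whole family the median fold between the sets was 1.15 and the median share of pairs in the same order 63.9%, against 1.05 and 59.3% over all genes. The array of F2 20, which the Y-linked probes placed differently, had 0.16 for Serpina6, -0.29 for Serpina12, -0.30 for Serpina7 and -0.62 for Serpina4-ps1.

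**Figure D1:**
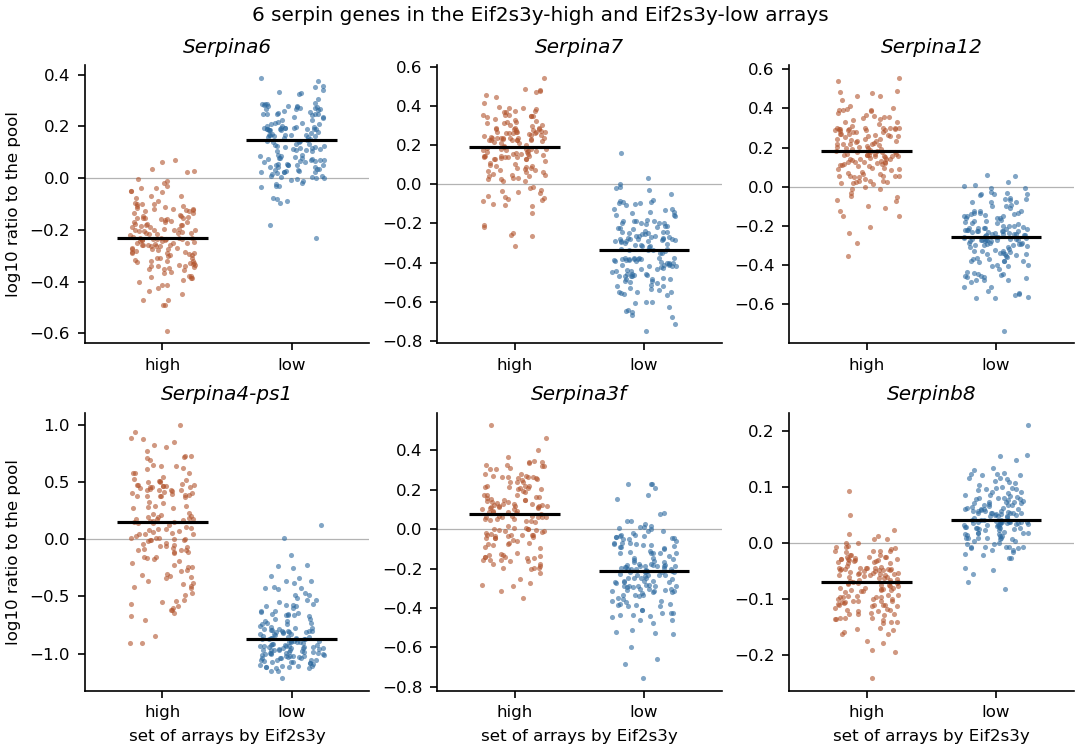
Log10 ratio to the pool (vertical axis) of 6 serpin genes in the 155 Eif2s3y-high and 156 Eif2s3y-low arrays, with 1 point per array and a line at the median; the vertical scale differs between panels. Serpina6 and Serpinb8 lie higher in the low arrays, the other 4 genes in the high arrays, and the sets of every gene overlap.

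Within the sets the spread over animals was measured as the SD, divided by the median SD of all genes in the same set. At 2 or more times the median stood 10 members in the Eif2s3y-high arrays, where 10.6% of all genes did, and 10 in the Eif2s3y-low arrays, where 9.74% did. Over all arrays 11 members did, against 11.0%. The median member had 1.65 times the median SD in the high and 1.66 times in the low arrays. In the family the range between the 5th and 95th percentile spanned 2.10-fold in the median member of the high arrays and 1.99-fold in that of the low arrays, against 1.59-fold and 1.56-fold over all genes.

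Serpina4-ps1 led the high arrays with 6.39 ± 0.317 times the median SD (SE of the SD, n = 154), and reached 3.97 ± 0.294 times (n = 155) in the low arrays. Its 5th and 95th percentiles were -0.61 and 0.75 in the high arrays and -1.11 and -0.35 in the low arrays. Serpina3f had 2.65 ± 0.130 and 2.83 ± 0.178 times the median SD, Serpina7 2.52 and 2.66 times, and Serpina12 2.45 and 2.36 times in the high and low arrays. Serpina6 stayed under 2 in both, at 1.84 and 1.83 times.

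Serpini2, known as pancpin from its expression in pancreas, had 3.29 ± 0.335 times the median SD in the high and 3.12 ± 0.269 times in the low arrays. Its log10 ratio ran from -0.62 over -0.19 to 0.78 in the high arrays and from -0.46 over -0.09 to 0.72 in the low arrays.

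Other members with a large SD had single extreme values. Serpinb2, the gene of plasminogen activator inhibitor 2, had 4.93 ± 0.939 times the median SD in the high and 5.19 ± 0.830 times in the low arrays. Its values were at the limits of the scale on 3 arrays, -2 on 2 high arrays and 2 on 1 low array, and its median absolute deviation was 2.61 and 2.97 times that of the median gene. Serpinb2 was also widely spread without its extremes, since its 5th and 95th percentiles lay 4.28-fold apart in the high and 4.67-fold apart in the low arrays. Serpina1a, an alpha-1-antitrypsin gene, had 3.26 ± 1.03 times the median SD in the low arrays, with 1 value at -2, while its median absolute deviation was 1.32 times the median. Serpinb9b had 3.13 ± 1.04 times in the low arrays, also with 1 value at -2, and a median absolute deviation of 1.87 times. Serpinb9e reached 2.52 and 2.89 times by SD and 1.37 and 1.49 times by median absolute deviation.

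Among the remaining members Serpinb6b (2.46 times in the high, 1.67 in the low arrays), Serpina1d (2.01 ± 0.125 and 1.45) and Serpinh1 (2.01 ± 0.106 and 1.75) passed 2 in the high arrays. Serpina1d and Serpinh1 passed it by less than their SE. Serpina3n (1.71 and 2.11) passed it in the low arrays. Serpina9 spread over 1.82 ± 0.125 times the median SD in the high arrays and 0.892 ± 0.0844 times in the low arrays. The least variable members were Serpinb8 with 0.779 and 0.740 times, Serpini1 with 0.903 and 0.856, Serpinb9 with 0.958 and 0.876 and Serpinb3a with 0.981 and 0.834.

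**Figure D2:**
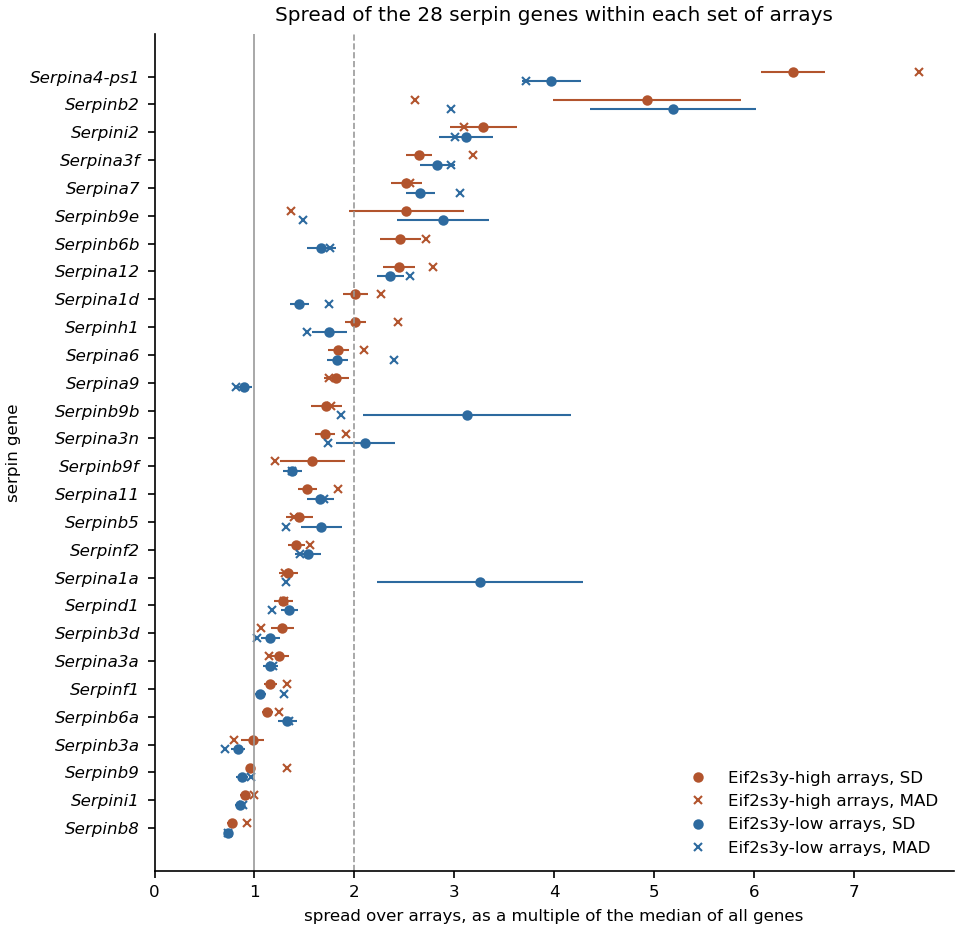
Spread over arrays of the 28 serpin genes as a multiple of the median of all genes (horizontal axis), by SD ± SE (dots and lines) and by median absolute deviation (MAD, crosses), in the Eif2s3y-high and Eif2s3y-low arrays. Serpina4-ps1 stands at 6.39 times in the high arrays, and in the low arrays the SD multiples of Serpinb2, Serpina1a, Serpinb9b and Serpinb9e exceed their MAD multiples.

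For 4 members the platform had a further probe that was measured on at least 95% of arrays. Those of Serpinb6a went together, with r = 0.475 in the high and 0.608 in the low arrays. Those of Serpina3n (0.109 and 0.0662), Serpinb3a (0.0355 and -0.0179) and Serpinb3d (-0.204 and -0.0432) did not, so that values of these 3 genes hold for the probe used and not for the gene. Serpina1c, left out for missing values, ran from -0.33 to 0.49 on 136 high arrays and from -0.39 to 0.33 on 135 low arrays. Serping1 ran from -0.33 to 0.39 on 116 high and from -0.32 to 0.53 on 112 low arrays.

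Correlations were taken within each set, since a pooled value would reflect the sets themselves. Every gene was regressed on every member with limma, and p-values were adjusted by Benjamini-Hochberg over all 318808 relations in a set. Of the 378 pairs of members, 140 (37.0%) passed an adjusted p of 0.05 in the high arrays, 80 of them positive and 60 negative. In the low arrays 103 pairs (27.2%) passed, 55 positive and 48 negative. Relations of a member with any gene passed in 25.0% of cases in the high (12.7% positive, 12.4% negative) and 20.4% in the low arrays (10.4% positive, 10.0% negative). Passing in both sets were 72 pairs, 51.4% of those of the high and 69.9% of those of the low arrays, and all 72 had the same sign in both. The same share over relations with any gene is not given here, so this overlap is no result about the family.

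Pairs were also counted by subfamily. Of relations with any gene 25.0% passed in the high and 20.4% in the low arrays. Among the 55 pairs of clade A genes, 34 (61.8%) passed in the high arrays, 28 positive and 6 negative, with a median r of 0.214. In the low arrays 26 (47.3%) passed, 20 positive and 6 negative, with a median r of 0.120. Among the 55 pairs of clade B genes, 9 (16.4%) passed in the high (median r 0.0666) and 10 (18.2%) in the low arrays (median r 0.0530). Both shares were under those of any gene, which cover all 28 members and count each direction alone. With single clade B members, from 2.61% (Serpinb3a) to 41.8% (Serpinb6b) of all genes were correlated in the high arrays. In the low arrays it was from 4.26% (Serpinb3a) to 36.4% (Serpinb6b). The clade B counts are therefore no result about the clade. Of the 121 pairs of a clade A with a clade B gene, 32 (26.4%) passed in the high arrays, 26 of them negative. In the low arrays 24 (19.8%) passed, 22 of them negative. These totals were near the shares of any gene, so they are no result about the clades. As negative, 12.4% of relations with any gene passed in the high and 10.0% in the low arrays. The counts of the subfamilies were not tested against each other, since pairs share genes.

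On chromosome 12 the 10 clade A genes stand close together, and 28 of their 45 pairs (62.2%) passed in the high and 23 (51.1%) in the low arrays. The pairs of next neighbours among the members ran from r = 0.218 (Serpina6 and Serpina1d) to r = 0.621 (Serpina11 and Serpina9) in the high arrays and from 0.107 (Serpina1d and Serpina1a) to 0.471 (Serpina3f and Serpina3n) in the low arrays. Of the 15 pairs of clade B genes on chromosome 13, 4 (26.7%) passed in the high and 6 (40.0%) in the low arrays. Relations with any gene passed in 25.0% and 20.4%. The chromosome 13 count of the high arrays is near that share, so it is no result about these pairs. Near-identical copies within clades A and B can share signal on a probe, so that correlations between close paralogs are uncertain.

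**Figure D3:**
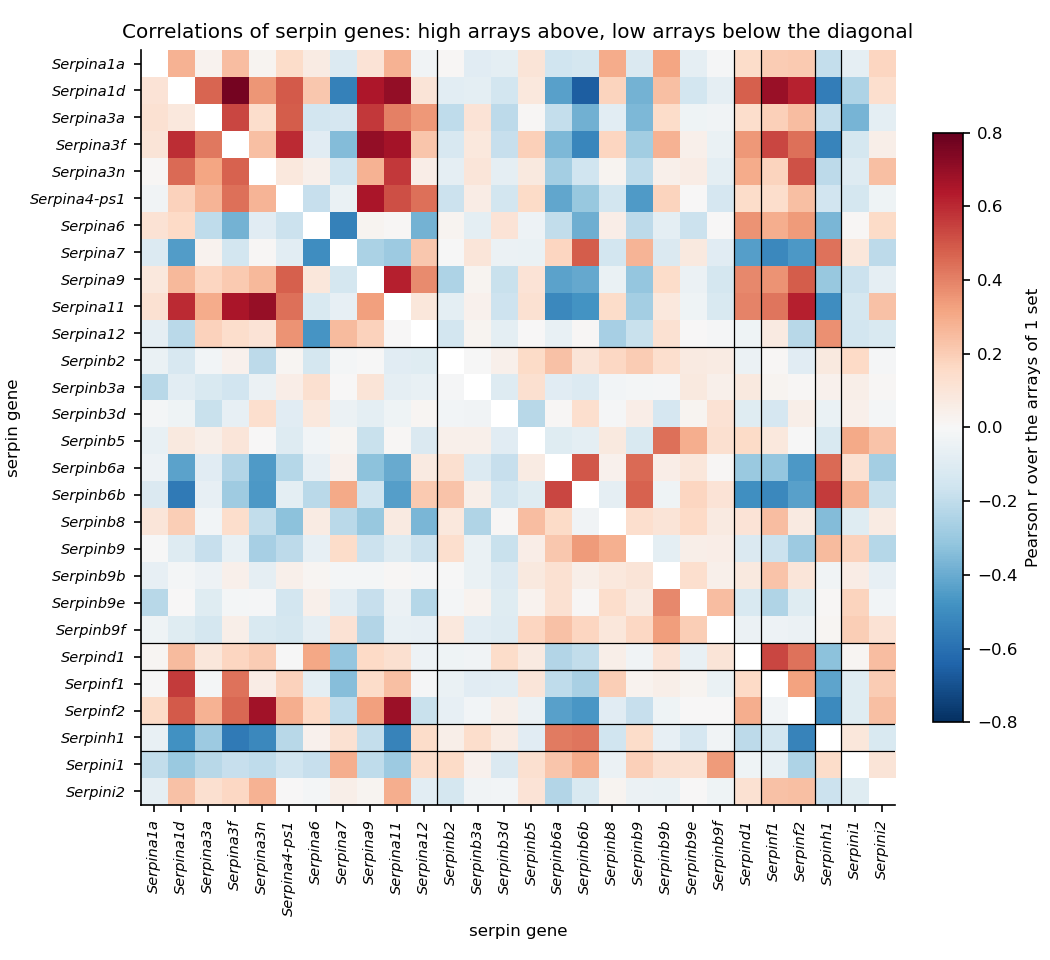
Pearson r of each pair of serpin genes, with Eif2s3y-high arrays above and Eif2s3y-low arrays below the diagonal and lines between the clades. Clade A genes such as Serpina1d, Serpina3f, Serpina9 and Serpina11 form positive pairs, while Serpinb6a, Serpinb6b and Serpinh1 form negative pairs with them. In the low arrays Serpina9 did not pass with Serpinb6b (r = -0.158, limma adjusted p 0.157) or Serpinh1 (r = -0.188, limma adjusted p 0.0804).

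The largest positive pair of the high arrays joined the antitrypsin gene Serpina1d and Serpina3f, with r = 0.766 in the high (n = 151, rho = 0.778) and 0.593 in the low arrays (n = 146, rho = 0.534). Each r and rho had a permutation p of 1e-05, the smallest that 100000 permutations give, and without the 2 arrays farthest from the median of Serpina1d r was 0.753 and 0.535. Unless another value is given, the permutation p of r and of rho was also 1e-05 for the pairs that follow, and r without the 2 farthest arrays is given as the last value.

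Serpina11, a clade A gene of unsettled function, was correlated with several plasma serpins in both sets. With Serpina1d r was 0.70 in the high arrays (rho 0.734, 0.684 without 2 arrays) and 0.600 in the low arrays (rho 0.591, 0.606). With Serpina3f it was 0.666 (rho 0.684, 0.657) and 0.655 (rho 0.593, 0.624). With Serpinf2, the alpha-2-antiplasmin gene, it was 0.621 (rho 0.605, 0.607) and 0.687 (rho 0.646, 0.629). With Serpina3n, an antichymotrypsin relative that is induced in the acute phase, it was 0.565 (rho 0.536, 0.535) and 0.697 (rho 0.564, 0.609). Serpinf2 and Serpina3n in turn gave 0.507 (rho 0.445, 0.460) and 0.669 (rho 0.516, 0.569).

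Serpinf1, which codes for pigment epithelium-derived factor, gave r = 0.693 with Serpina1d in the high (rho 0.680, 0.708) and 0.562 in the low arrays (rho 0.579, 0.551).

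Serpina9, known as centerin from germinal centre B cells, was strongly paired in the high arrays and less so in the low arrays. With Serpina3f r was 0.703 in the high (rho 0.708, 0.677) and 0.212 in the low arrays (rho 0.203, 0.178), where r had a permutation p of 0.00811, rho of 0.0119, and the limma adjusted p was 0.0416. With Serpina1d it was 0.646 (rho 0.712, 0.652) and 0.257 (rho 0.240, 0.197; permutation p 0.00182 and 0.00388). With Serpina4-ps1 it was 0.650 (rho 0.644, 0.637) and 0.481 (rho 0.390, 0.340). The SD of Serpina9 in the low arrays was the smaller, and the difference of r between the sets was not tested.

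Of its 27 pairs, Serpinb6a had the most negative in both sets, 11 in the high and 9 in the low arrays. The collagen chaperone Serpinh1 (10 and 8) and Serpinb6b (10 and 7) followed. Of 11386 genes, 2119 and 2152 were negative with Serpinb6a, 2764 and 1812 with Serpinh1 and 2600 and 2200 with Serpinb6b. Serpinb9 had 10 in the high and 2 in the low arrays, Serpina7 9 and 5, and Serpina6 6 and 5, of 27 each. Of 11386 genes, 2111 and 1458 were negative with Serpinb9, 1893 and 1084 with Serpina7 and 1379 and 1202 with Serpina6. The count of Serpinb9 in the low arrays lay under its share of all genes. The pairs that follow are those with the most negative r. Serpinb6b with Serpina1d gave r = -0.661 in the high (rho -0.626, -0.605) and -0.565 in the low arrays (rho -0.50, -0.502). Serpinh1 with Serpina1d gave -0.553 (rho -0.555, -0.537) and -0.487 (rho -0.430, -0.399). With Serpina3f it gave -0.526 (rho -0.530, -0.508) and -0.568 (rho -0.512, -0.524), and with Serpina11 -0.494 (rho -0.472, -0.466) and -0.534 (rho -0.376, -0.453).

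The 4 members that fell into 2 groups over all arrays were also set against each other within the sets. Serpina6 and Serpina7, the carriers of glucocorticoids and of thyroxine, were negatively correlated, with r = -0.543 in the high (rho -0.498, -0.518) and -0.494 in the low arrays (rho -0.490, -0.488). Serpina6 was also negative with Serpina12, at -0.381 (rho -0.306, -0.324; permutation p of rho 0.00021) and -0.472 (rho -0.495, -0.503). Serpina12 and Serpina4-ps1 were positive, at 0.439 (rho 0.430, 0.412) and 0.359 (rho 0.353, 0.335). Serpina12 and Serpina7 gave 0.214 (rho 0.147, 0.183; permutation p 0.00747 and 0.0691) and 0.251 (rho 0.257, 0.287; permutation p 0.00133 and 0.00129), with limma adjusted p of 0.0322 and 0.0111. The pairs Serpina6 with Serpina4-ps1 and Serpina7 with Serpina4-ps1 did not pass in either set, with limma adjusted p between 0.0802 and 0.713 and r between -0.182 and -0.0502. The permutation p of r lay between 0.024 and 0.538 for these pairs. By ranks Serpina6 and Serpina4-ps1 gave rho = -0.224 in the low arrays (permutation p 0.00507). Thus Serpina6 and Serpina7 opposed each other within each set as well as between the sets, and no correlation was detected between Serpina7 and Serpina4-ps1, which stood higher in the same set.

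**Figure D4:**
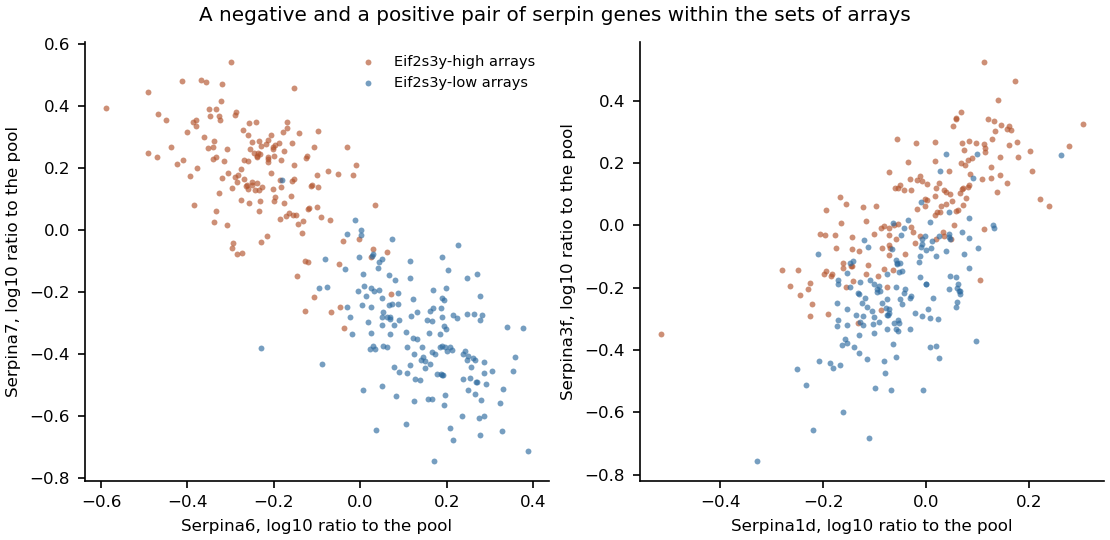
Log10 ratios to the pool of Serpina7 against Serpina6 (left) and of Serpina3f against Serpina1d (right), with 1 point per array. Within each set Serpina7 falls as Serpina6 rises (r = -0.543 in the high and -0.494 in the low arrays), and Serpina3f rises with Serpina1d (r = 0.766 and 0.593).

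Beyond the family, the 3 genes with the largest absolute r in each set were taken for the members with the largest spread and for the 2-group members. For the leading genes of a set permutation p was 1e-05 where no other is given. Where r of a leading gene is also given for the other set, it has no permutation p. For Serpina6 the leading gene in both sets was Ngef, which codes for a guanine nucleotide exchange factor, with r = 0.655 in the high (rho 0.604, 0.634 without 2 arrays) and 0.689 in the low arrays (rho 0.650, 0.652). Then came Homer2 (0.624, rho 0.607, 0.624) and Gnai1 (-0.620, rho -0.621, -0.600) in the high arrays, and Acot3 (0.603, rho 0.589, 0.575) and Insig2 (-0.599, rho -0.596, -0.638) in the low arrays. Insig2 codes for a retention factor of sterol sensing and Acot3 for a peroxisomal acyl-CoA thioesterase. In the respective other set these 4 genes gave r of 0.400, -0.308, 0.546 and -0.499.

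For Serpina7 the leading genes were Cyp4f15 (-0.677, rho -0.674, -0.655), Bmp8b (0.674, rho 0.694, 0.663) and Ly6d (0.668, rho 0.656, 0.647) in the high arrays. In the low arrays they were Nap1l1 (0.651, rho 0.638, 0.646), Dot1l (-0.597, rho -0.608, -0.595) and Ermp1 (0.594, rho 0.609, 0.638). Nap1l1 and Ermp1 gave 0.645 and 0.591 in the high arrays as well. Cyp4f15 is a cytochrome P450 of fatty acid hydroxylation, and Dot1l a histone methyltransferase.

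Serpina12 was led by Pnpla7, a lysophospholipase gene (0.660, rho 0.636, 0.634), Alg2 (0.640, rho 0.658, 0.627) and Tuft1 (0.623, rho 0.590, 0.601) in the high arrays. In the low arrays the leading genes were negative, namely Sh3yl1 (-0.553, rho -0.568, -0.540), Gkap1 (-0.549, rho -0.584, -0.520) and the sulfotransferase gene Sult1d1 (-0.547, rho -0.543, -0.525). Gkap1 and Sult1d1 gave -0.537 and -0.50 in the high arrays, while Alg2 gave 0.201 in the low arrays and did not pass there (limma adjusted p 0.0558).

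For Serpina4-ps1 the carboxylesterase gene Ces4a led the high arrays (0.748, rho 0.745, 0.745), before Serpina9 and Bmf (0.641, rho 0.616, 0.633). The low arrays were led by Vldlr (-0.600, rho -0.590, -0.565), the receptor gene of very low density lipoprotein, Hao2 (-0.520, rho -0.581, -0.521) and the growth factor receptor gene Egfr (0.491, rho 0.458, 0.453). These 3 genes gave -0.559, -0.531 and 0.633 in the high arrays.

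Serpina3f had the closest partners of these members. In the high arrays r was 0.844 with Cyp7b1 (rho 0.831, 0.835), an oxysterol hydroxylase gene, 0.844 with the steroid dehydrogenase gene Hsd3b5 (rho 0.857, 0.839) and 0.838 with the organic anion transporter gene Slco1a1 (rho 0.844, 0.838). In the low arrays the same genes gave 0.392, 0.288 and 0.383. There the leading genes were Ces3b (0.75, rho 0.717, 0.738), Bmp1 (0.712, rho 0.659, 0.70) and Egfr (0.705, rho 0.677, 0.696), and Ces3b and Egfr gave 0.820 and 0.826 in the high arrays.

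For members with single extreme values, the r of some leading partners depended on few arrays and that of others did not. For Serpina1a in the low arrays Lrrc10 gave r = -0.690 (permutation p 0.00354) but rho = 8.7e-05 (permutation p 0.999) and r = -0.016 without the 2 farthest arrays. For Serpinb9b in the low arrays Tsga10 gave -0.707 (permutation p 0.00121; rho -0.111, permutation p 0.171) and -0.0849 without them. For Serpinb2 in the high arrays Morc1 gave 0.522 (permutation p 3e-05; rho 0.195, permutation p 0.0155) and 0.268 without them. Serpinb2 in the low arrays gave 0.620 with Crisp3 (rho 0.406, 0.505 without them) and 0.613 with Ace3 (rho 0.519, 0.512). In the same arrays Serpinb9b gave 0.671 with Olfr716 (permutation p 3e-05; rho 0.392), and 0.324 without them.

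Serpini2 was led by genes of the exocrine pancreas and gut: Tff2 (0.704, rho 0.381, 0.588), Ctrl (0.686, rho 0.305, 0.571; permutation p of rho 0.00016) and Pnliprp2 (0.666, rho 0.210, 0.534; permutation p of rho 0.00942) in the high arrays, and Amy2 (0.672, rho 0.413, 0.580), Ctrl (0.670, rho 0.403, 0.581) and Cel (0.661, rho 0.391, 0.572) in the low arrays. Of 9 measured pancreas genes all 9 were positive and passed in each set, against 7.39% of all genes in the high and 6.17% in the low arrays. On the 4 high arrays with pancreas signal Serpini2 stood at 0.59 to 0.78, above the other 149 with -0.62 to 0.25. On the 4 low arrays with it, Serpini2 stood at 0.32 to 0.72, and the other 152 ran from -0.46 to 0.54. Without these arrays r between Serpini2 and the mean of the 9 genes went from 0.658 to 0.274 in the high arrays (rho 0.185, permutation p 0.00066 and 0.0248) and from 0.645 to 0.455 in the low arrays (rho 0.261, permutation p 1e-05 and 0.00123). The mean of the 9 genes had a median of -1.18 in each set. In bulk liver RNA fewer cells of a type and less RNA per cell cannot be told apart.

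Genes of the plasma protein and cell type lists were then read for the members by role, with a relation counted where its limma adjusted p was under 0.05 and the share of all genes correlated with the same member given beside it. Permutation p was again 1e-05 unless another value is given. For the protease inhibitors of plasma the list of acute phase genes held 9 measured genes. All 9 were positive with the Serpina3n probe used, from which the further probe differed, in both sets (23.4% of all genes were correlated with it in the high and 30.5% in the low arrays), led in both by Itih3, which codes for a heavy chain that binds hyaluronan, with r = 0.680 in the high (rho 0.612, 0.636) and 0.798 in the low arrays (rho 0.569, 0.726). With Serpina11, 7 were positive and none negative in the high arrays (36.1%) and all 9 were positive in the low arrays (26.7%), and Itih3 led with 0.662 (rho 0.644, 0.652) and 0.798 (rho 0.719, 0.738).

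Serpinf2, the plasmin inhibitor, was set against 14 genes of coagulation and fibrinolysis. In the high arrays 8 were positive and 1 negative (39.5% of all genes) and in the low arrays 9 were positive and 2 negative (35.1%). Factor VII (F7) led with r = 0.777 in the high (rho 0.785, 0.758) and 0.779 in the low arrays (rho 0.746, 0.738), followed by factor X (F10) with 0.695 (rho 0.711, 0.684) and 0.734 (rho 0.692, 0.677). Serpind1, the heparin cofactor II gene, had 7 positive and 1 negative in the high arrays (26.2%) and 2 positive and none negative in the low arrays (11.0%). The count of the low arrays is near the share of all genes, so it is no result about the list. F7 led for Serpind1 too, with 0.544 in the high (rho 0.565, 0.513) and 0.335 in the low arrays (rho 0.389, 0.319; permutation p of r 6e-05).

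Serpina1d, of alpha-1-antitrypsin, had 9 positive and 2 negative of these 14 genes in the high (43.3%) and 9 positive and 1 negative in the low arrays (31.4%). Of 4 measured hepatocyte genes, Hnf4a and Tat had the largest absolute r with it. The regulator Hnf4a gave r = 0.666 in the high (rho 0.665, 0.651) and 0.525 in the low arrays (rho 0.499, 0.466). Tat gave 0.353 (rho 0.355, 0.353; permutation p of r 3e-05) and 0.496 (rho 0.433, 0.427). The count of this list is not given here, so these values are no result about hepatocyte genes. Of 10 macrophage genes 6 were negative with Serpina1d in each set, led by cathepsin S (Ctss) with -0.626 (rho -0.620, -0.601) and -0.505 (rho -0.461, -0.470). Of the 13 complement genes 9 were positive and 3 negative with Serpina11 in the high arrays (36.1% of all genes were correlated with it), and 6 were positive and none negative in the low arrays (26.7%). The lectin gene Mbl1 led both, with 0.654 (rho 0.652, 0.630) and 0.573 (rho 0.513, 0.544).

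Both hormone carriers were set against the 9 acute phase genes. With Serpina6 5 of 9 were negative and none positive in each set (24.8% of all genes were correlated with it in the high and 21.2% in the low arrays), and the largest were Lcn2 in the high arrays (-0.390, rho -0.398, -0.358) and Orm1 in the low arrays (-0.382, rho -0.302, -0.332; permutation p of rho 0.00019). With Serpina7 3 were positive in the high (31.3%) and 6 in the low arrays (18.5%), none negative. The count of the high arrays is near the share of all genes, so it is no result about the list. Lcn2, a siderophore-binding lipocalin, led both with 0.479 (rho 0.485, 0.538) and 0.459 (rho 0.428, 0.421). Serpina7 was negative with 7 of the 14 coagulation genes in the high and 5 in the low arrays, and positive with 1 in each. Of these, protein C (Proc) gave -0.623 (rho -0.614, -0.600) and -0.423 (rho -0.457, -0.441).

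Since Serpina6 binds glucocorticoids, 9 genes of steroid metabolism and glucocorticoid response were read. Both counts lay near or under the share of all genes correlated with Serpina6, 24.8% in the high and 21.2% in the low arrays, so they are no result about the list. In the high arrays 3 were positive and none negative, led by Tsc22d3, which codes for GILZ (0.386, rho 0.335, 0.369; permutation p of rho 2e-05), and Tat (0.326, rho 0.285, 0.314; permutation p 4e-05 and 0.00047). In the low arrays only Fkbp5 passed, and it was negative (-0.329, rho -0.309, -0.264; permutation p 3e-05 and 0.00011). The difference between the sets was not tested.

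Of the intracellular clade B members, Serpinb6a, Serpinb6b and Serpinb9 are described here. For the other 8 at most 2 of 10 macrophage genes were positive in the high and 1 in the low arrays, and Serpinb5 had 4 negative in the high arrays. From 2.61% to 23.9% of all genes were correlated with 1 of these 8 in the high and 4.26% to 28.9% in the low arrays. With Serpinb5 it was 13.8% in the high arrays. With Serpinb6a, whose human counterpart inhibits cathepsin G, 7 of 10 macrophage genes were positive and none negative in each set (33.9% of all genes were correlated with it in the high and 33.8% in the low arrays). Ctss gave 0.754 (rho 0.763, 0.754) and 0.696 (rho 0.646, 0.657), and Cd68 gave 0.742 (rho 0.727, 0.727) and 0.731 (rho 0.645, 0.714). The mean log10 ratio of the 10 macrophage genes ran from -0.27 to 0.21 in the high and from -0.20 to 0.32 in the low arrays. Its part in the results on Serpinb6a and Serpinb6b was not tested.

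Serpinb6b had 6 of 8 stellate cell and matrix genes positive and none negative in each set (41.8% of all genes in the high and 36.4% in the low arrays). The collagen crosslinking enzyme gene Lox gave 0.714 (rho 0.704, 0.699) and 0.589 (rho 0.640, 0.585). Of the 10 macrophage genes Ctss had the largest absolute r with Serpinb6b in both sets, 0.609 (rho 0.62, 0.581) and 0.646 (rho 0.642, 0.639). The count of macrophage genes correlated with Serpinb6b is not given here, so this is no result about that list. Serpinb9, an inhibitor of granzyme B, had 3 positive and 1 negative of 10 neutrophil and lymphocyte genes in the high arrays, and 3 positive and none negative in the low arrays. The median r was 0.0630 and 0.0173, and the counts were near the 34.6% and 25.4% of all genes correlated with it, so they are no result about the list. The largest r was that with Ptprc, the leukocyte antigen CD45, at 0.528 (rho 0.558, 0.516) and 0.440 (rho 0.485, 0.449).

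Serpinh1, the collagen chaperone, had 7 of 8 stellate cell and matrix genes positive and 1 negative in the high arrays (43.2% of all genes) and 6 positive and none negative in the low arrays (31.0%). Pdgfrb, the receptor that marks stellate cells and pericytes, gave 0.843 (rho 0.856, 0.842) and 0.817 (rho 0.775, 0.781). Among 12 genes of collagen and its folding besides Serpinh1, 6 were positive and 2 negative in the high and 5 positive and 1 negative in the low arrays. Col1a1 and Col1a2 are in both lists, so the counts of the lists are not independent. The collagen genes Col5a2 and Col4a1 gave 0.788 (rho 0.798, 0.784) and 0.737 (rho 0.726, 0.717) in the high arrays, and 0.465 (rho 0.482, 0.410) and 0.556 (rho 0.571, 0.587) in the low arrays. The mean of the 8 stellate cell and matrix genes ran from -0.24 to 0.25 in the high and from -0.31 to 0.14 in the low arrays, and its part in the results on Serpinh1 and Serpinb6b was not tested.

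**Figure D5:**
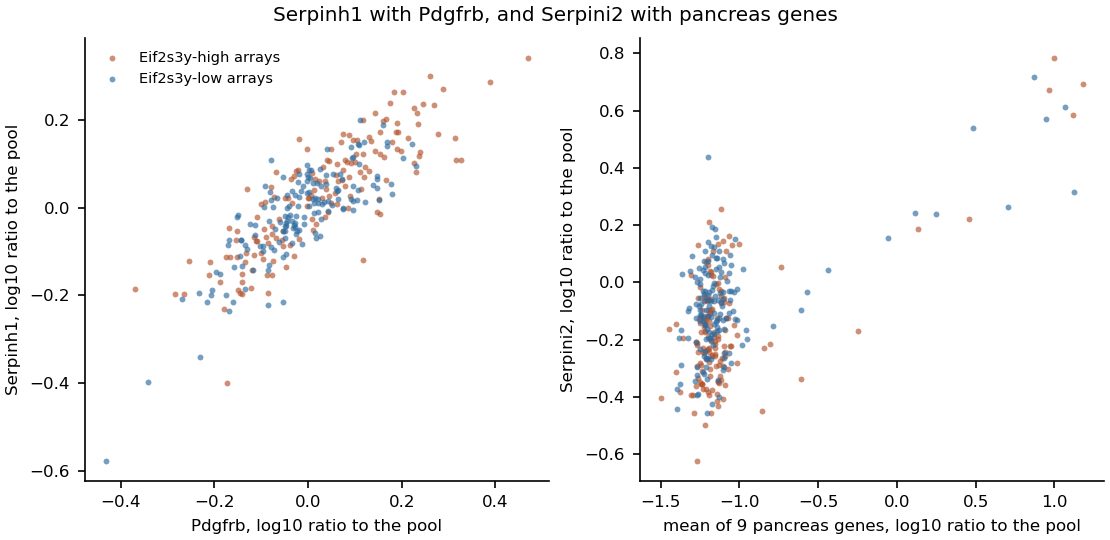
Log10 ratios to the pool of Serpinh1 against Pdgfrb (left) and of Serpini2 against the mean of 9 pancreas genes (right), with 1 point per array. Serpinh1 rises with Pdgfrb in both sets (r = 0.843 and 0.817), and the arrays with Serpini2 values from 0.59 to 0.78 in the high set stand apart on the pancreas axis.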

How the data were processed

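The authors deposited log10 ratios of each animal (Cy3) to the pool (Cy5), per the labels, already normalized and limited to -2 and 2; how they were normalized is not given in the sources used here. Base and sign were derived from the values: each gene's mean regressed on its variance had a slope of -1.416, against -1.151 for a log10 ratio to a pool of all samples and -0.347 for log2. Over 48205 pairs of arrays the lowest r was -0.478 and 350 lay under -0.3; since the labels give the dyes, directions were kept. Array medians lay between -0.0218 and 0.0172, array SDs between 0.0658 and 0.206, and 0.745% of values were missing. The number of arrays limits the precision.

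Values were used as deposited, with 1 probe per gene (fewest missing values, first in the file at ties) and symbols updated through RefSeq. The members, gene lists, tests and alternatives were chosen with earlier results of these data known. Named were the 4 members of largest SD in each set and the 2-group members with their 3 closest genes, the 8 largest and 3 most negative member pairs of each set, and the 2 closest genes of each list; any other was chosen after its values were seen. In the 2-group rule the smaller group held at least 0.1 of the arrays and the components lay at least 2 pooled SD apart (Ashman's D). A pair passed when both directions of the regression did. Standard errors of an SD allowed for kurtosis and took the median SD as fixed, and permutation tests were two-sided with 100000 resamples. Rules and fits were tested on simulated data. Python 3.11.15, NumPy 2.4.6, SciPy 1.17.1, Numba 0.67.0, R 4.3.3 and limma 3.58.1 were used.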

Additional observations from a re-analysis of the deposited data

How the results depend on the processing

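Each count was recomputed under 9 or 10 alternatives, and 83 of 89 values stayed within 1.5 times the count first given. These alternatives were centred arrays, the probe of largest SD, each part of the animals by F2 number, arrays left out for a large SD or for pancreas or muscle signal, values at the limits set to missing, sets made on Kdm5d, and other thresholds or measures. Sets made on Kdm5d could not change a count over all arrays, so the 83 include values that could not move. The counts of 2-group members within each set were 0 in every alternative. A threshold of 3 times the median SD left 7 members over all arrays, 3 in the Eif2s3y-high and 5 in the Eif2s3y-low arrays. With sets made on Kdm5d, 8 members stood at 2 or more times the median SD in the high set, where 10 did by Eif2s3y. Among animals with F2 numbers above 186, 2 members fell into 2 groups, Serpina7 and Serpina4-ps1; Serpina6 and Serpina12 had BIC margins of 2.46 and 7.74 there. With fewer animals fewer pairs passed: 54 in the low arrays with F2 numbers up to 186, and 87 in the high arrays with numbers above it. The 5 members with medians 1.5-fold apart were the same in every alternative except the 2-fold threshold, which 4 passed. The demand, chosen after seeing the data, that the mixture also beat skewed distributions kept 4 members in 2 groups. No paired analysis was possible because all arrays form 1 group.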

Other observations

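Other members had close partners too, which were chosen after their values were seen; the permutation p of r and rho was 1e-05 for each. Serpina1d and the probe named for the homeobox gene Msx2 gave r = 0.954 in the Eif2s3y-high (n = 151, rho 0.961) and 0.919 in the Eif2s3y-low arrays (n = 146, rho 0.910), and 0.95 and 0.905 without the 2 arrays farthest from the median of Serpina1d. Serpinf2 gave 0.802 (n = 155, rho 0.807) and 0.857 (n = 156, rho 0.817) with Itih1, which codes for a heavy chain of the inter-alpha-trypsin inhibitors, and 0.785 and 0.828 without 2 arrays. Serpinf1 gave 0.788 (n = 154, rho 0.803) and 0.810 (n = 156, rho 0.798) with the neuropeptide precursor gene Cartpt, and 0.797 and 0.818 without 2 arrays. Serpinf1 also gave 0.794 (rho 0.770) and 0.716 (rho 0.702) with Ahcy, the gene of S-adenosylhomocysteine hydrolase. Serpinb6a gave 0.797 in the high arrays (rho 0.795) with Tyrobp, an adaptor protein gene of myeloid cells. In the low arrays this pair gave 0.732 (limma adjusted p 7.55e-24), for which no permutation p is given.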
